A study of Homo sapiens with 8 samples.

Results

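The genes described here make cholesterol and fatty acids, together with the genes that switch this synthesis and the exporters that carry sterols out of the cell. The list held 33 genes that are textbook targets or partners of the SREBP transcription factors, and a gene was kept when its normalized count reached 10 or more in at least 2 libraries. Of the 33 genes, 32 passed this filter, among 13369 that passed of 25369 gene symbols in the table. They were 18 cholesterol genes (9 from acetyl-CoA to squalene epoxide, the mevalonate stage, and 9 from there to cholesterol, the sterol stage), 8 fatty acid genes, 5 genes of regulation and sterol transport, and 1 of the 2 exporters, ABCG1. The other exporter, ABCA1, did not pass, with 4 and 7 normalized counts in soft IPN, 3 and 0 in stiff IPN, 5 and 5 in soft col:rBM and 14 and 8 in stiff col, where a floor of 3 reads lies at 2.41 to 3.73 normalized counts.

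RNA-seq was performed on MCF10A cells, a spontaneously immortalized and nontransformed line of human mammary epithelial cells, after 7 days inside 4 kinds of hydrogel. Soft IPN and stiff IPN are interpenetrating networks of alginate and reconstituted basement membrane (rBM), and only the stiff IPN has its alginate crosslinked by calcium. Soft col:rBM is a gel of rBM with collagen type 1 (col-1), while stiff col is a stiff col-1 gel whose label names no rBM. Whether stiff col also held rBM is not stated in the sources used here. The collagen gels thus differ in stiffness and col-1 at once, and perhaps in rBM. Each gel had 2 libraries, labelled replicates 1 and 2, and the paper describes 2 independent trials. Libraries with the same replicate number are taken here as the same trial, which the labels do not state. All gels held the same cell line with no edited gene and no drug, and no other line was sequenced in these libraries. A gel is harvested whole, so fewer cells of a type and less RNA per cell cannot be told apart.

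Cholesterol is built from acetyl-CoA through mevalonate, isoprenoids, squalene and lanosterol, and fatty acids are built from the same acetyl-CoA by carboxylation, chain synthesis, elongation and desaturation. When sterols run low in the endoplasmic reticulum, INSIG proteins release the SREBP precursors for cleavage, and the freed factors switch on both branches, SREBF2 mainly the cholesterol branch and SREBF1 mainly the fatty acid branch. Surplus sterol acts the other way: it holds the precursors back and, as oxysterol, activates the liver X receptors, which switch on the exporters ABCA1 and ABCG1.

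The libraries held between 13065615 and 18583116 reads on genes, as worked out from the steps between low values. The paper, which sequenced read pairs, gives higher read numbers after filtering, and whether a pair was counted once is not stated. The normalized counts of the libraries summed to between 14306848 and 17999273, lowest in stiff IPN replicate 2. The basal epithelial keratins KRT5 (7417 to 44022 normalized counts) and KRT14 (839 to 7964) and the laminin gene LAMB3 (25292 to 49086) were present in every library. Of the luminal markers, the keratins KRT8 (3023 to 6132) and KRT18 (4014 to 7326) were also present, whereas KRT19 was at 1 to 6. The marker lists of other cells were mixed. PTPRC (leukocytes), COL1A2 (fibroblasts) and TTR (hepatocytes) were at 0 in all 8 libraries. On the same lists CD68 (324 to 5017) and CD14 (89 to 412) for leukocytes and DCN (526 to 1217) and COL1A1 (168 to 333) for fibroblasts were present. Of the adipocyte markers, ADIPOQ was at 1 to 4, PLIN1 at 2 to 24 and CIDEC at 0 to 27. PLIN1 and CIDEC were highest in replicate 1 of soft IPN, soft col:rBM and stiff col. CD68, a lysosomal protein, had 4222 and 2092 normalized counts in soft IPN and 1220 and 324 in stiff IPN (called lower with the block, log2 fold change -2.24), and the basal keratin KRT17 had 5552 and 18767 against 19555 and 71907 (called higher with the block, 1.88). Their part in the lipid values was not tested. Values are normalized counts, fold changes are differences of log2(normalized count + 1), and a gene was called at a Benjamini-Hochberg adjusted p under 0.05 from limma over all 13369 genes. The smallest two-sided p that exact permutation of 2 against 2 libraries can reach is 0.333, so every call draws on limma's pooling of variance over genes. With equal replicate numbers taken as the same trial, the fit with the trial as a block is given beside the fit without it. Standard errors (SE) are from the fit without the block. The cultures of a trial were not described further, and p values measure the spread between these libraries.

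Promoter sequences are shown first, for the genes on which the comparison of the IPNs turns. RefSeq (GRCh38.p14) gave the 250 bases before the transcription start for 27 of the 32 genes, and the genes without an entry were ACAT2, FDFT1, SQLE, FASN and ABCG1. Capitals mark each CCAAT or ATTGG (the box bound by NF-Y, a cofactor of SREBP at many sterol genes) and each match to TCACNCCAC on either strand (a core of the sterol regulatory element). HMGCS1 and FDPS are shown as the cholesterol genes with the largest difference between the IPNs among those called. SREBF2 is shown because it alone held the sterol element core, and ELOVL6 because it was the called fatty acid gene and held neither motif. The windows lie at chr5:43313413-43313662 (minus strand) for HMGCS1, chr1:155308616-155308865 (plus strand) for FDPS, chr22:41832855-41833104 (plus strand) for SREBF2 and chr4:110198616-110198865 (minus strand) for ELOVL6.
HMGCS1: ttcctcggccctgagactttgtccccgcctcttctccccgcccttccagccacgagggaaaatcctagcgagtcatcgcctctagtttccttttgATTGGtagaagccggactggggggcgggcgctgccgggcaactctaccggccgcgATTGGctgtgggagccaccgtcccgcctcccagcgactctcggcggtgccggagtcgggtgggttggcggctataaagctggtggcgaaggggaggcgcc
FDPS: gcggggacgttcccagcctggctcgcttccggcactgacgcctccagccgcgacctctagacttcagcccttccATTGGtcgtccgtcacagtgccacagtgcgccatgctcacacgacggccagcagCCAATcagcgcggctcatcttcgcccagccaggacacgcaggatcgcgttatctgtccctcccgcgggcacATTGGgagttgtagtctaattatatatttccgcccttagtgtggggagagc
SREBF2: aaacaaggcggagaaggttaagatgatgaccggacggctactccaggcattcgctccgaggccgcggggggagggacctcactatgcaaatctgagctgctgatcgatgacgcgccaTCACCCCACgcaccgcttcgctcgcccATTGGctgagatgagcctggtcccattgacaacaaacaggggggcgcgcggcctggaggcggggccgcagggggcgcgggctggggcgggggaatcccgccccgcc
ELOVL6: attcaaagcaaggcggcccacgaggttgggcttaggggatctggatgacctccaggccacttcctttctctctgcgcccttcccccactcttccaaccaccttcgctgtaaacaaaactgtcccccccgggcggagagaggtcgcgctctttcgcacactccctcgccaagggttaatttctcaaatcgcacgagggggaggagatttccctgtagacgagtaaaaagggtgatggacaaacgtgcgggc

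The CCAAT box was found in 18 of the 27 promoters (66.7%), against 11240 of all 35116 RefSeq promoters of this length (32%). It stood in 12 of 15 cholesterol genes (80%) and in 3 of 7 fatty acid genes (42.9%), which were SCD, ACLY and ACSS2. HMGCS1 held it at 2 places and FDPS at 3. The sterol element core was found in SREBF2 alone, starting 133 bases before the start site, and in 0.883% of all promoters. The Sp1 box GGGCGG, counted on both strands with overlaps allowed, was in 25 of 27 (92.6%) against 42.6% of all promoters, and the palindromic E-box CACGTG in 2 of 27 (7.41%) against 6.34%. The direct repeat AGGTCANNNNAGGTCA of the liver X receptor was in 0 of 27 and in 0.0142% of all promoters. These matches describe letters in a window and were not tested for binding.

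To ask how RNA of the lipid synthesis genes differed between the basement membrane gels, stiff IPN was compared with soft IPN. These gels differ in calcium as well as in stiffness, which cannot be told apart here. The cholesterol genes stood higher in stiff IPN, with a median log2 fold change of 0.60 over the 18 genes and 17 of them positive, while all 13369 genes had a median of -0.01. The fatty acid genes had a median of -0.15, with 3 positive and 5 negative, so the cholesterol median exceeded the fatty acid median by 0.75. This difference of medians was larger in trial 2 (1.04) than in trial 1 (0.45), and came to 0.44 without soft IPN replicate 2 and 0.49 without stiff IPN replicate 2. The sign of the fatty acid median rested on single libraries and on the scaling. It was 0.04 without soft IPN replicate 2, 0.13 without stiff IPN replicate 1 and 0.12 with libraries rescaled to equal sums. That rescaling brought the median of all genes to 0.26, so the fatty acid median stayed below it. The plot of the 32 genes in each library shows the cholesterol block at its highest in stiff IPN replicate 2. By the median distance from the gene means, stiff IPN replicate 1 (0.14) lay below stiff col replicate 1 (0.21).

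**Figure D1:**
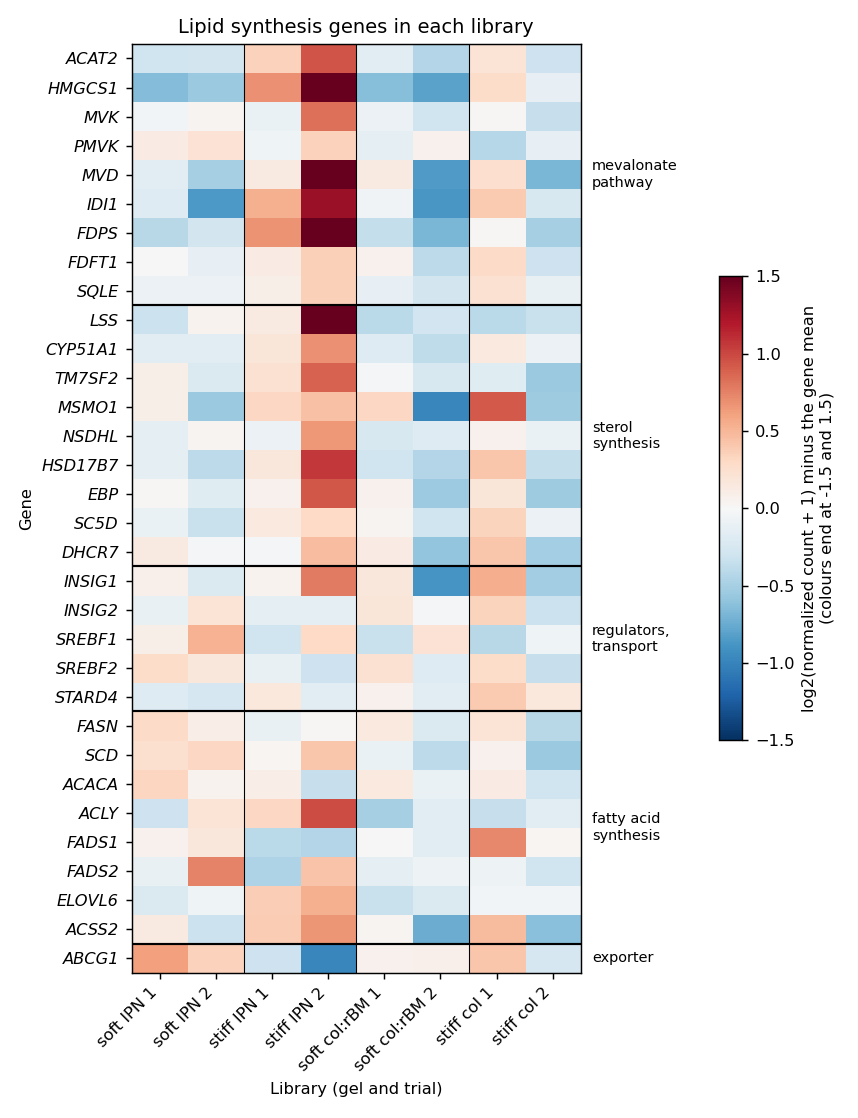
Heat map of the 32 genes (rows, in order of pathway stage) in the 8 libraries (columns, by gel and trial), coloured by log2(normalized count + 1) minus the gene's mean over the libraries, with the colours ending at -1.5 and 1.5. Most of the 18 cholesterol genes are red in stiff IPN 2 and paler red in stiff IPN 1, while the 8 fatty acid genes do not share a colour there.

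Early in the mevalonate stage stands HMGCS1, the enzyme that makes HMG-CoA. It had 1657 and 1762 normalized counts in soft IPN, 4171 and 9096 in stiff IPN, 1673 and 1486 in soft col:rBM and 3142 and 2393 in stiff col (replicates 1 and 2). Both stiff IPN libraries lay above the other 6, and both stiff col libraries lay above both soft gels. FDPS, which makes farnesyl pyrophosphate for sterols and for protein prenylation, had 6711 and 7389 in soft IPN, 14303 and 26286 in stiff IPN, 7022 and 5571 in soft col:rBM and 9053 and 6334 in stiff col. Both stiff IPN libraries were again the highest of the 8, and in both genes the stiff IPN replicates lay further apart than those of any other gel. Between the IPNs the log2 fold change was 1.85 for HMGCS1 (SE 0.35, a 3.60-fold difference) and 1.46 for FDPS (SE 0.33, 2.75-fold).

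Without the block, neither gene passed in limma (adjusted p = 0.410 for HMGCS1 and 0.491 for FDPS), and no gene of the 13369 did. The paper's own pairwise DESeq2 analysis did call genes between these gels, and the paper lists HMGCS1 as higher in stiff IPN. At an unadjusted p under 0.05 in limma without the block, 9 of the 32 genes passed, 8 higher and 1 lower. Of all genes, 9.31% did so (4.80% higher and 4.51% lower). With the trial as a block, HMGCS1 (adjusted p = 0.0317 in limma), FDPS (adjusted p = 0.0418) and ELOVL6 (adjusted p = 0.0479) were called higher in stiff IPN and ABCG1 (adjusted p = 0.0386) lower. Over all genes tested, 1.69% were called higher and 2.13% lower with the block. On hg19 these genes span chr5:43287572-43313614 (HMGCS1), chr1:155278539-155290457 (FDPS), chr4:110967002-111120355 (ELOVL6) and chr21:43619799-43717354 (ABCG1). Pseudogenes named after FDPS are annotated (8 of them), and reads that mapped to more than 1 place had been removed. An antisense gene overlaps exons of HMGCS1, FDPS (RUSC1-AS1) and ELOVL6, from which reads cannot be told apart without strand. Over every alternative the adjusted p ran from 0.000353 to 0.999 for HMGCS1, from 0.00151 to 0.999 for FDPS, from 0.0161 to 0.999 for ELOVL6 and from 0.00998 to 0.999 for ABCG1. The 4 calls with the block depended on single libraries: 20 members passed without stiff IPN replicate 1, 5 without stiff IPN replicate 2, 3 without either soft col:rBM library, 2 without either stiff col library, and 0 without soft IPN replicate 1 or replicate 2.

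**Figure D2:**
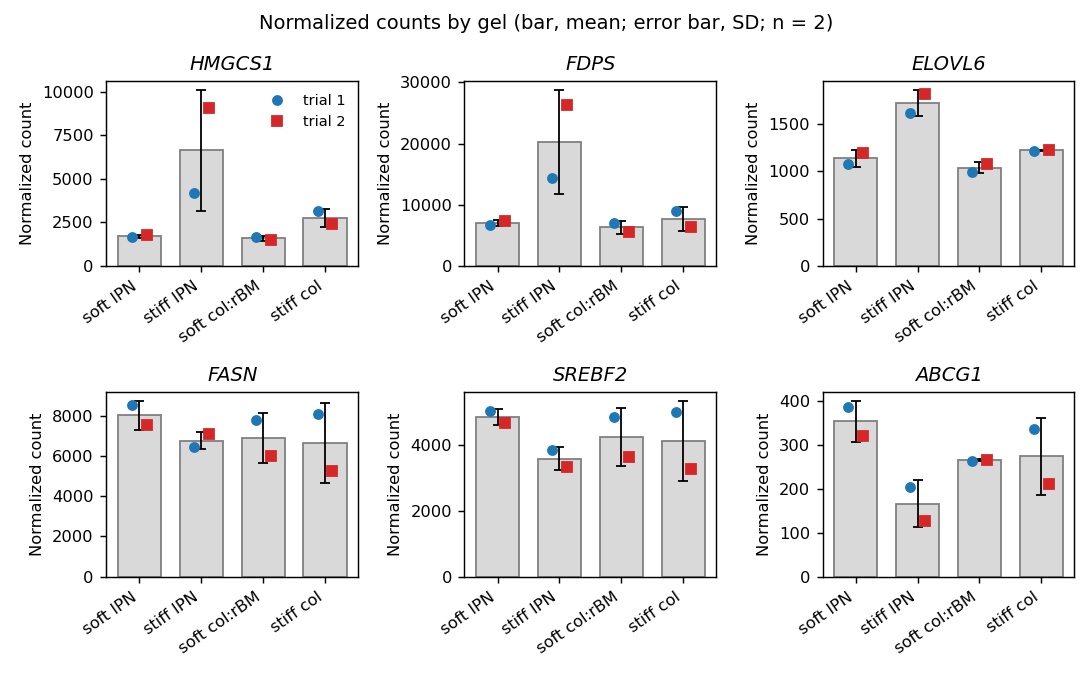
Normalized counts (y axis, from 0) of HMGCS1, FDPS, ELOVL6, FASN, SREBF2 and ABCG1 in the 4 gels (x axis). Bars are means, error bars the SD over 2 libraries, circles trial 1 and squares trial 2. The stiff IPN libraries lie above all others in HMGCS1, FDPS and ELOVL6 and below all others in ABCG1, where trial 2 of stiff col (212) is close to trial 1 of stiff IPN (204).

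Elsewhere in the mevalonate stage, ACAT2 makes acetoacetyl-CoA. It had 1403 and 1425 normalized counts in soft IPN against 2199 and 3333 in stiff IPN (log2 fold change 0.94, adjusted p = 0.0686 with the block in limma). IDI1, which isomerizes the isoprenoid unit, had 2015 and 1273 against 3326 and 5661 (1.44, adjusted p = 0.0586). MVD, which forms that unit by decarboxylation, had 940 and 745 against 1155 and 3392 (1.24, adjusted p = 0.195). Stiff IPN libraries lay above soft IPN libraries in all 3 genes, and MVD differed between the stiff IPN libraries by more than replicate 1 of stiff IPN differed from the soft IPNs. FDFT1, which makes squalene, had 5483 and 5029 against 5997 and 7066, and SQLE, a rate-limiting oxygenase that makes squalene epoxide, 4364 and 4352 against 4928 and 5904. Their log2 fold changes were 0.31 each. The mevalonate kinases showed least: MVK had 529 and 556 against 507 and 960 (0.36) and PMVK 1010 and 1074 against 885 and 1182 (-0.03), with overlapping libraries in both. In the collagen gels IDI1 had 2223 and 1258 normalized counts in soft col:rBM and 3024 and 1956 in stiff col. In the same order MVD had 1161 and 585 and then 1252 and 654, SQLE had 4231 and 3825 and then 5407 and 4289, and PMVK had 842 and 971 and then 687 and 851. Replicate 1 was the higher in each collagen gel in IDI1, MVD and SQLE and the lower in PMVK.

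All 9 genes of the sterol stage had a positive log2 fold change, from 0.16 to 0.99 with a median of 0.60, and none was called. LSS, which closes squalene epoxide to lanosterol, had 1094 and 1419 normalized counts in soft IPN and 1509 and 4084 in stiff IPN, and its log2 fold change of 0.99 was the largest of the stage. The stiff IPN libraries lay above the soft ones, and without stiff IPN replicate 2 the value was 0.28. CYP51A1, the lanosterol demethylase, had 3158 and 3142 against 3999 and 5689 (0.60), and HSD17B7, a sterol ketoreductase, 170 and 143 against 211 and 392 (0.88). TM7SF2, a sterol reductase, had 57 and 46 against 63 and 100 (0.62), MSMO1, a methyl sterol oxidase, 6685 and 4277 against 7761 and 8545 (0.61), and EBP, a sterol isomerase, 2201 and 1912 against 2285 and 4163 (0.59). SC5D, a sterol desaturase, had 1336 and 1134 against 1581 and 1766 (0.44). In these 7 genes the gels did not overlap, whereas NSDHL (0.34), a sterol dehydrogenase, and DHCR7 (0.16), a sterol reductase, had overlapping libraries. In the collagen gels LSS had 1038 and 1127 in soft col:rBM and 1040 and 1088 in stiff col. SC5D had 1478 and 1160 and then 1805 and 1343, and TM7SF2 had 53 and 45 and then 47 and 36.

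Of the 18 cholesterol genes, 14 had both stiff IPN libraries above both soft IPN libraries, where 20.5% of all genes did, and 15 were higher in both trials, where 31.2% of all genes were. No cholesterol gene was lower in both trials. The size nevertheless differed between the trials, with a median of 0.23 in trial 1 and 1.05 in trial 2, as the plot of both trials shows. Without stiff IPN replicate 2 the median was 0.32, and rescaling all libraries to equal sums moved it to 0.87. That rescaling moved the median of all genes by 0.26, since stiff IPN libraries had the smaller sums, and values under it are read relative to that shift.

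**Figure D3:**
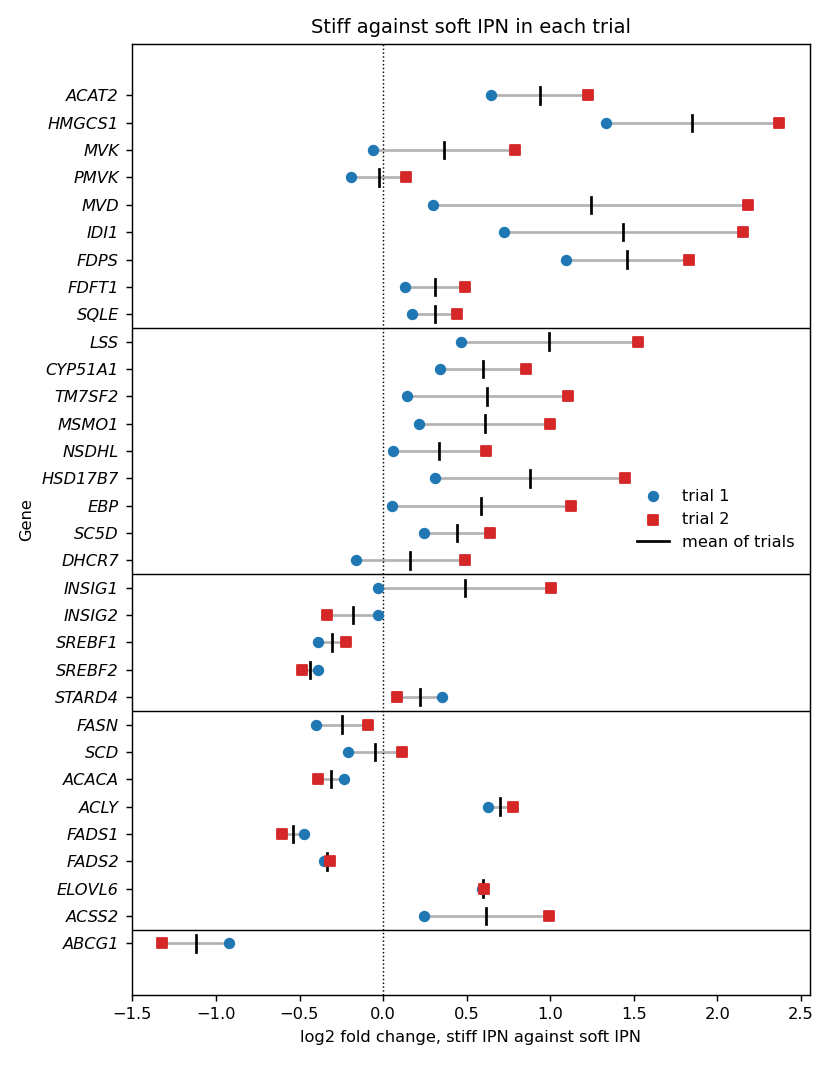
Log2 fold change of stiff against soft IPN (x axis) for each of the 32 genes (y axis), in trial 1 (circles), in trial 2 (squares) and as their mean (black ticks), with lines between pathway stages. In the 18 cholesterol genes every square lies to the right of its circle, and in ELOVL6 and FADS2 the circles and squares nearly coincide.

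Of the 8 fatty acid genes, 3 were higher in stiff IPN without overlap and 2 lower, where 20.5% and 21.4% of all genes were. ELOVL6, which lengthens palmitate, had 1074 and 1197 normalized counts in soft IPN, 1619 and 1817 in stiff IPN, 995 and 1079 in soft col:rBM and 1218 and 1219 in stiff col. Its stiff IPN libraries were the highest of the 8, and the log2 fold change between the IPNs was 0.59 in trial 1 and 0.60 in trial 2. ACLY, which splits citrate to supply cytosolic acetyl-CoA to both branches, had 4116 and 5866 in soft IPN, 6349 and 10066 in stiff IPN, 3613 and 4538 in soft col:rBM and 4022 and 4554 in stiff col (log2 fold change 0.70 between the IPNs, adjusted p = 0.0526 with the block in limma). ACSS2, which makes acetyl-CoA from acetate, had 1255 and 914 in soft IPN and 1486 and 1816 in stiff IPN (0.62). Its collagen gel values were 1177 and 684 in soft col:rBM and 1586 and 739 in stiff col. In these 3 genes the IPN libraries did not overlap.

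The other 5 fatty acid genes had negative values between the IPNs, and none of them was called. FASN, fatty acid synthase, had 8550 and 7522 normalized counts in soft IPN, 6465 and 7074 in stiff IPN, 7776 and 6021 in soft col:rBM and 8074 and 5235 in stiff col. The stiff IPN libraries lay below the soft IPN libraries but within the range of the collagen gels, and the log2 fold change was -0.25 (SE 0.26). ACACA, the acetyl-CoA carboxylase, had 4556 and 3755 in soft IPN, 3879 and 2867 in stiff IPN, 4024 and 3390 in soft col:rBM and 3943 and 2954 in stiff col (-0.31 between the IPNs). SCD, which desaturates stearate, had 27270 and 28640 in soft IPN, 23620 and 30957 in stiff IPN, 21538 and 17650 in soft col:rBM and 24193 and 15687 in stiff col, with overlapping IPNs (-0.05). Rescaling to equal sums, which shifts all genes by 0.26, turned FASN to 0.02 and SCD to 0.22. The desaturases of polyunsaturated fatty acids were among the 5. FADS1 had 1591 and 1710 in soft IPN against 1148 and 1125 in stiff IPN (-0.54, adjusted p = 0.146 with the block in limma), and FADS2 had 627 and 1139 against 490 and 912 (-0.34). In the collagen gels FADS1 had 1524 and 1368 in soft col:rBM and 2516 and 1554 in stiff col, and FADS2 had 613 and 645 and then 640 and 549. FADS1 and FADS2 overlap on opposite strands and the library kit does not mark strand, so reads in the shared part cannot be told apart.

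The regulators of the pathway had fold changes of both signs between the IPNs, and none was called. SREBF2, the factor of the cholesterol branch, had 5027 and 4670 normalized counts in soft IPN, 3834 and 3340 in stiff IPN, 4864 and 3629 in soft col:rBM and 4991 and 3259 in stiff col. Both stiff IPN libraries lay below both soft IPN libraries. The log2 fold change was -0.44 (SE 0.26 without the block, adjusted p = 0.154 with the block in limma). SREBF1 had 1520 and 2047 in soft IPN, 1159 and 1752 in stiff IPN, 1128 and 1656 in soft col:rBM and 1070 and 1366 in stiff col. Its IPN libraries overlapped, although stiff IPN was lower within each trial (-0.39 and -0.22). INSIG1, the SREBP-retaining protein that is itself an SREBP target, had 1358 and 1106 in soft IPN, 1332 and 2217 in stiff IPN, 1455 and 700 in soft col:rBM and 1883 and 894 in stiff col. It was level between the IPNs in trial 1 (-0.03) and higher in stiff IPN in trial 2 (1.003). INSIG2, its counterpart, had 386 and 481 in soft IPN, 378 and 381 in stiff IPN, 473 and 412 in soft col:rBM and 525 and 333 in stiff col (-0.18 between the IPNs, and 0.09 after rescaling to equal sums). STARD4, which moves cholesterol between membranes, had 444 and 429 in soft IPN against 568 and 454 in stiff IPN (0.22), without overlap, and 534 and 451 in soft col:rBM and 671 and 568 in stiff col.

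ABCG1, which passes cholesterol to lipoproteins outside the cell, was lower in stiff IPN with the block. It had 388 and 321 normalized counts in soft IPN, 204 and 128 in stiff IPN, 264 and 267 in soft col:rBM and 337 and 212 in stiff col. The stiff IPN libraries were the lowest of the 8, and the log2 fold change was -1.12 (SE 0.32 without the block, with soft IPN 2.18-fold higher). Of all genes, 21.4% had both stiff IPN libraries below both soft ones. The liver X receptor genes and targets of a separate list, NR1H2, NR1H3, MYLIP and LPCAT3, all had negative values there (median -0.50), and none of the 4 was called with or without the block. Of 12 genes of SREBP processing and sterol handling, 13 further genes of fatty acid and glycerolipid synthesis and 9 of fatty acid oxidation, none was called between the IPNs either, with medians of -0.18, 0.05 and -0.09.

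Of 10 listed squamous differentiation genes 8 had enough reads, and 4 of them were called between the IPNs. With the block IVL (log2 fold change 1.91), SPRR1A (2.97), SPRR2D (4.11) and S100A7 (5.40), which encode cornified envelope proteins and an S100 protein of keratinocytes, were called higher in stiff than in soft IPN. The median of the 8, taken within each library as the distance from the gene mean, was 2.31 and 2.81 in stiff IPN, -0.45 and 0.59 in soft IPN, -1.33 and -0.70 in soft col:rBM and -2.99 and -0.24 in stiff col. TGM1, the transglutaminase of the list, was not called (-0.14), with 439 and 1388 normalized counts in soft IPN and 917 and 549 in stiff IPN. KRT1 and KRT13, the keratins of this list that did not pass, were at 0 to 5 and 0 to 3 normalized counts. Stiff IPN 2 was the highest library in both the squamous and the cholesterol genes, whereas stiff col 1, the lowest in squamous genes, stood above stiff IPN 1 in cholesterol genes. Stiff col 2 was above stiff col 1 in squamous genes (-0.24 and -2.99) and below it in cholesterol genes (-0.32 and 0.21). The part of squamous differentiation in the cholesterol values was not tested.

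Within each library, the median distance of the cholesterol genes from their gene means was set beside that of the fatty acid genes. Cholesterol genes stood at -0.12 and -0.20 in soft IPN, 0.14 and 0.86 in stiff IPN, -0.11 and -0.42 in soft col:rBM and 0.21 and -0.32 in stiff col. Fatty acid genes stood at 0.10 and 0.14, 0.06 and 0.42, -0.05 and -0.19, and 0.09 and -0.30 in the same order. The cholesterol median was above the fatty acid median in both stiff IPN libraries (by 0.08 and 0.43) and in stiff col 1 (by 0.12), and below it in the other 5 libraries, in stiff col 2 by 0.02.

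**Figure D4:**
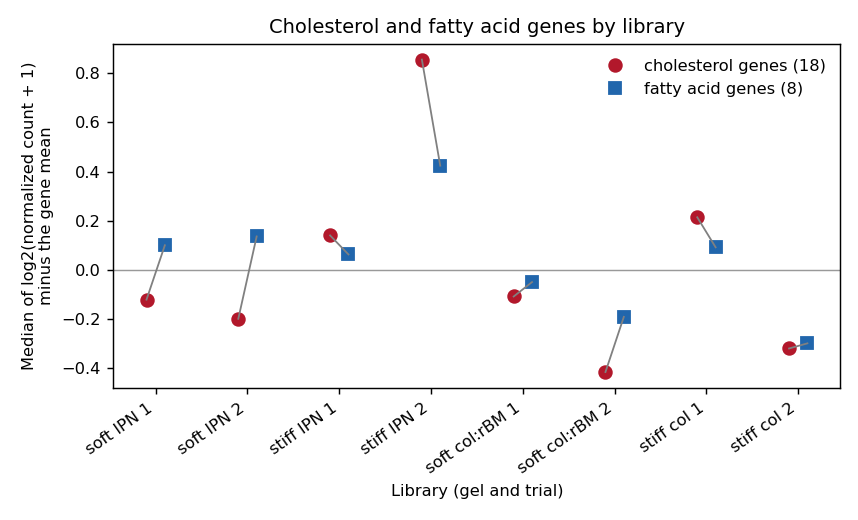
Median of log2(normalized count + 1) minus the gene mean (y axis) over the 18 cholesterol genes (circles) and the 8 fatty acid genes (squares) in each of the 8 libraries (x axis), joined by a line. Stiff IPN 2 is highest in both groups (0.86 and 0.42), and both soft IPN libraries have the circle below the square.

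Over the 8 libraries the cholesterol genes mostly varied together. The median Pearson r was 0.817 over their 153 pairs, of which 150 were positive, whereas it was 0.296 over the 28 pairs of fatty acid genes, 0.387 over the 144 pairs across both groups and -0.001 over all pairs of genes tested. These correlations describe 8 libraries that share gels and trials. ACSS2 (median r with the cholesterol genes 0.843), ELOVL6 (0.739), ACLY (0.677) and SCD (0.592) varied with the cholesterol genes more than FASN (0.242), FADS2 (0.198), ACACA (-0.278) and FADS1 (-0.285) did. INSIG1 varied with them (0.819), SREBF1 (-0.05) and SREBF2 (-0.18) had values near or below 0, and ABCG1 had a negative r with each of the 18 (median -0.594).

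Stiff col was compared with stiff IPN, gels that are both stiff but differ in col-1, alginate and calcium, and perhaps in rBM. The comparison shares the stiff IPN libraries with the one above. All 18 cholesterol genes had a negative log2 fold change, with a median of -0.55 (all genes, 0.00), and the fatty acid genes had a median of -0.32. The trials differed here: in trial 1 the cholesterol median was 0.11, and in trial 2 it was -1.21. Only 8 of the 18 were lower in both trials, where 27.3% of all genes were, and 8 were lower without overlap between the gels, where 15.8% of all genes were. Of the other members, FADS1 and ABCG1 were higher without overlap (15.1% of all genes), and 4 of the 32 were higher in both trials (28.2%). Without stiff IPN replicate 2 the cholesterol median was -0.18. Of the 8 squamous genes tested, 6 were called lower in stiff col with the block, among them SPRR1A with 242 and 397 normalized counts in stiff IPN against 6 and 37 in stiff col and S100A7 with 395 and 586 against 0 and 11. Their part in the lipid values was not tested.

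The largest differences were in FDPS (-1.36, adjusted p = 0.0589 with the block in limma), LSS (-1.22, adjusted p = 0.0838) and HMGCS1 (-1.17, adjusted p = 0.102), and the libraries of these 3 genes did not overlap. ACLY was called lower with the block (-0.90, SE 0.29 without the block, adjusted p = 0.0328 in limma, from 0.00596 to 1 over every alternative), where 1.47% of all genes were called lower. Its stiff col libraries (4022 and 4554) lay below both stiff IPN libraries (6349 and 10066). Without the block its adjusted p was 0.603, and 8 of the 32 genes had an unadjusted p under 0.05, 1 higher and 7 lower, where 6.27% of all genes did (2.58% higher and 3.69% lower). In the opposite direction, FADS1 was higher in stiff col (0.80 above stiff IPN, adjusted p = 0.0816 with the block), ABCG1 was 0.72 and STARD4 0.28 above stiff IPN. For ACLY the call was lost without soft IPN replicate 1 or 2 (adjusted p = 0.0756 in each case) and without stiff col replicate 1 (adjusted p = 0.149) or 2 (adjusted p = 0.214), and 20 members were called without stiff IPN replicate 1.

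Stiff col was then compared with soft col:rBM, the pair of collagen gels, which differ in stiffness and col-1, and perhaps in rBM. No gene of the 13369 was called, with or without the block, and 140 (1.05%) had an unadjusted p under 0.05 without it, none of them a member. The cholesterol genes had a median of 0.23, with 15 of 18 positive and 14 positive in both trials (30.8% of all genes were), and the fatty acid genes a median of 0.04. Of the 32 members, 7 were higher in stiff col without overlap and 0 lower, where 9.51% and 9.50% of all genes were, and 4 were lower in both trials (32.7%). HMGCS1 had the largest value (0.80, SE 0.35, 0.91 in trial 1 and 0.69 in trial 2), and IDI1 (0.54) and MSMO1 (0.53) followed. MSMO1 had 7773 and 3198 normalized counts in soft col:rBM and 11901 and 4326 in stiff col, so that its trials lay further apart than its gels. At the other end were PMVK (-0.24), TM7SF2 (-0.24) and SREBF1 (-0.18). Single libraries set the size of the cholesterol median, which was 0.003 without stiff col replicate 1, 0.06 without soft col:rBM replicate 2, 0.40 without soft col:rBM replicate 1 and 0.46 without stiff col replicate 2.

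Between the soft gels, soft col:rBM against soft IPN, 3 of the 13369 genes were called with the block (0.0150% higher and 0.00748% lower) and no member was. The comparison shares its libraries with those above. Most members had slightly lower values in soft col:rBM, with a median of -0.12 for the cholesterol genes (16 of 18 negative) and -0.24 for the fatty acid genes (8 of 8 negative, and negative in both trials in each, where 27.6% of all genes were). Of the 32 members, 1 was higher without overlap and 8 lower, where 10.3% and 10.4% of all genes were, and 2 were higher in both trials (26.3%). No member had an unadjusted p under 0.05 without the block, where 1.42% of all genes did. SCD (-0.52), FADS2 (-0.43) and ABCG1 (-0.41) were furthest down and STARD4 (0.17), SC5D (0.09) and IDI1 (0.06) furthest up. Rescaling to equal sums, which shifted all genes by 0.10, brought the cholesterol median to -0.01 and the fatty acid median to -0.13.

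The difference between stiff and soft gels was compared across the 2 matrices, as the log2 fold change in collagen gels minus that in IPNs. The collagen gels also differ in col-1 and perhaps in rBM, and the IPNs in calcium, so stiffness alone was not compared. Without the block no gene was called, and 3 members had an unadjusted p under 0.05, FDPS, FADS1 and ABCG1, where 2.08% of all genes did. With the block 2 genes were called (0.0150%, both lower), neither a member. The largest member differences were -1.19 for FDPS (adjusted p = 0.420 with the block in limma), -1.11 for MVD and -1.05 for HMGCS1, and, in the other direction, 1.13 for ABCG1 (adjusted p = 0.331), 0.99 for FADS1 (adjusted p = 0.344) and 0.38 for SREBF2. The cholesterol median was -0.41 and the fatty acid median 0.11, which became -0.11 after rescaling to equal sums (a shift of -0.21 in all genes). Of the 32 members 6 were higher and 11 lower in both trials, where 29.8% and 28.3% of all genes were. Without stiff IPN replicate 2 the cholesterol median was -0.06, and whether the block fit called members depended on stiff IPN replicate 1.

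The trials were also compared, as replicate 2 minus replicate 1 within gels. Over all genes 12.7% were called higher and 14.4% lower in trial 2, and of the members 2 were called higher and 2 lower. SREBF1 was higher in trial 2 in 4 of 4 gels (0.48, adjusted p = 0.0106 in limma, from 0.00420 to 0.0750 over every alternative) and so was ACLY (0.42, adjusted p = 0.0296, from 0.00802 to 0.108). ACACA was lower in all 4 gels (-0.34, adjusted p = 0.0329, from 0.0219 to 0.163), and MSMO1 was lower in 3 of 4 (-0.81, adjusted p = 0.0394, from 0.000892 to 0.167). The exception for MSMO1 was stiff IPN, with 7761 in trial 1 and 8545 in trial 2. The calls depended on single libraries, since the number of members called changed whichever library was left out.

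For the cholesterol genes, the trials differed in opposite directions in different gels. In stiff IPN all 18 were higher in trial 2, with a median of 0.70, whereas in stiff col 2 of 18 were higher (median -0.47), in soft col:rBM 3 of 18 (-0.25) and in soft IPN 7 of 18 (-0.07). The fatty acid genes differed less in stiff IPN, where 6 of 8 were higher in trial 2 (median 0.23), and about as much in stiff col, where 2 of 8 were (-0.52). The block takes the trial difference as equal in every gel, and what it leaves over enters the spread behind the tests above. Proliferation genes, from a list of 10, were all higher in trial 2 over the gels (median 0.44), with MKI67, RRM2, TYMS and PCNA called, but in stiff IPN they stood at 0.00 in trial 1 and -0.32 in trial 2. Of the 13 further genes of fatty acid and glycerolipid synthesis 6 were called lower in trial 2, most of all ACSL1 (-1.03), which activates long-chain fatty acids, then the elongase ELOVL5 (-0.64) and ACSL3 (-0.56), and of the 12 sterol handling genes the late endosomal NPC1 (-0.60) and NPC2 (-0.51) and STARD3 (-0.50) were called lower. The part of these lists in the members' trial difference was not tested.

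**Figure D5:**
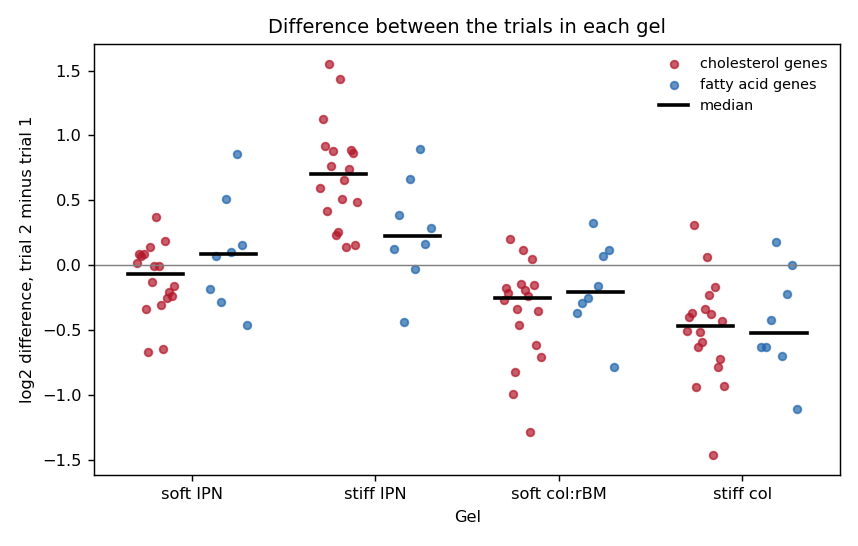
Difference between the trials, as log2(normalized count + 1) in trial 2 minus trial 1 (y axis), in each of the 4 gels (x axis) for the 18 cholesterol genes (left points) and the 8 fatty acid genes (right points), with black lines at the medians. All cholesterol points lie above 0 in stiff IPN (median 0.70), and most lie below 0 in stiff col (median -0.47).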

How the data were processed

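RNA-seq of MCF10A cells in 4 hydrogels, with 2 libraries each, was used. The authors trimmed reads (Trim Galore 0.3.3), aligned them to hg19 (the paper names Bowtie2, the submitters' processing notes TopHat2 2.0.13), removed unmapped, low quality and multimapped reads (SAMtools 1.1 is named) and counted the rest per gene with HTSeq. The authors' notes also name DESeq2 and R 3.2.0. The deposited values are a signal, whole numbers that fit read counts multiplied by 1 factor per library and rounded, and are called normalized counts here. The gene annotation and strand setting are not given in the sources used here.

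Genes that reached 10 normalized counts in 2 or more of the 8 libraries were fitted on log2(normalized count + 1), so with a pseudocount of 1. The fit used R 4.3.3 and limma 3.58.1 (statmod 1.5.0) and had a mean for each gel, a variance trend and robust moderation. P values were adjusted by Benjamini-Hochberg over all genes of a comparison. The fit with the replicate number as a block was the alternative. The paper describes independent trials, and the differences between the trials correlated across genes in all 6 pairs of gels (r from 0.278 to 0.819). The pairs with stiff IPN were the weakest, at 0.278 with soft IPN, 0.393 with soft col:rBM and 0.398 with stiff col. The floor of 3 reads covers counting error only, as no molecular identifiers are described. All 8 value columns were used.

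Members, gene lists and tests were chosen with earlier results of these data known. Every member was accounted for, and values in every library were given for SREBF1, SREBF2, INSIG1, INSIG2, the exporters, HMGCS1, SQLE, FASN, SCD, the members called with or without the block, and the 3 largest rises and falls per comparison. For other lists up to 3 called genes per comparison were to be named, and further called genes were named after their values were seen. Alternatives were other pseudocounts (0.5 and 5), filters, scalings, moderation, fits of only the compared gels, and leaving out each library. Gene overlaps are from GENCODE 44 on hg19. By that annotation, 15 of the 33 genes overlap an exon on the other strand and 5 have named pseudogenes, FDPS with 8, IDI1 and CYP51A1 with 3 each, HSD17B7 with 2 and SCD with 1. Annotation and plots were made in Python 3.11.15 (matplotlib 3.10.9, numpy 2.4.6, pandas 2.3.3).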

Additional observations from a re-analysis of the deposited data

How the results depend on the processing

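The trial block decided the calls. Between the IPNs, 4 members were called with the replicate block and 0 without it, also 4 with the block at a pseudocount of 0.5 or 5 or after median-of-ratios rescaling, and from 0 to 20 when the block was combined with leaving out a library. Between stiff col and stiff IPN it called 1, also 1 under those 3 settings, and from 0 to 20 with a library left out. For the difference between matrices it called 0, and 8 without stiff IPN replicate 1. The trial term called 4 members, 1 in limma without trend and robust moderation, and from 0 to 14 with a library left out. With an arm of 1 library, that library is assumed to vary like the others.

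The fatty acid median between the IPNs was 0.123 with equal column sums, where INSIG2 became 0.0867, FASN 0.0242 and SCD 0.223. The median of all genes was 0.262 under that scaling, above each of these values. With a library left out the fatty acid median lay between -0.168 and 0.129, and SCD between -0.243 and 0.148. In the block fit INSIG1 became -0.284 without stiff IPN replicate 2, INSIG2 0.116 without soft IPN replicate 2, FASN 0.0155 without stiff IPN replicate 1, and SCD 0.0748 and 0.288 without those 2 libraries. For stiff col against soft col:rBM, leaving out a library gave cholesterol medians from 0.00309 to 0.458, fatty acid medians from -0.238 to 0.236, differences of the medians from 0.140 to 0.272, MSMO1 from -0.205 to 1.255 and SREBF1 from -0.454 to 0.0999. For soft col:rBM against soft IPN it gave differences from 0.0614 to 0.173, IDI1 from -0.348 to 0.473 (-0.155 and -0.261 with the block), SC5D from -0.0855 to 0.264 (-0.00164 with the block) and FADS2 from -0.856 to 0.00412. For the difference between matrices MVD became 0.0467 with the block without stiff IPN replicate 2. The cause was not tested. The other medians moved by less than the SD of their values per trial, or per gel for the trial comparison, though some near 0 changed sign. That SD is wide where the trials disagree. The cholesterol median between the IPNs thus fell from 0.60 to 0.32 without stiff IPN replicate 2 and stayed within it. The 2 libraries per gel limit every test.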
